A study of Homo sapiens with 9 samples.

Results

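LAT2 is a membrane adaptor of myeloid and B cells, and its transcript was followed here with those of 8 proteins that act beside it in immunoreceptor signalling. The 9 genes, of 60623 listed, are the adaptors LAT2, LCP2 and TYROBP, the tyrosine kinases LYN, FGR, SYK and BTK, and the effectors VAV1 and PLCG2. LAT2 was selected on measured values, namely its lower level in AML1-ETO cells at 48 h against 0 h, and the other 8 were selected by their role in the pathway with results of these data known. The values of LAT2 in that comparison are therefore a description.

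RNA-seq was performed on U937, a human monocytic leukemia cell line, in 9 libraries from 3 stable lines at 0, 12 and 48 h of 5 μg/ml doxycycline. U937-CTR carried the empty vector, U937-AE carried AML1-ETO and U937-EG carried ETO2-GLIS2, the last 2 being fusion transcription factors of different acute myeloid leukemias. All lines were made with the retroviral pRetrox-Tet3G vector and puromycin selection, both fusion cDNAs carried an N-terminal HA tag, and each fusion line was grown from 1 single-cell clone, so that clone and fusion protein cannot be told apart. The 0 h libraries of all 3 lines are uninduced cells, and doxycycline, which switches on the construct, was also given to empty vector cells. No library was made at 12 or 48 h without doxycycline, so its effect and that of time cannot be told apart. Each condition had 1 library, so no difference below has a replicate check and no p-value was computed.

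The deposited unit is FPKM, that is, reads scaled by the exon length of the gene and the size of the library. A log2 fold change is log2 of FPKM plus 0.01 in 1 library minus that in another, and a gene is counted as higher or lower where it is past 2-fold and the average of both FPKM values reaches 1. Depth lay between 15136399 and 18443639 counted reads per library. Reads were recovered from the FPKM, and the intervals in parentheses are exact Clopper-Pearson 95% intervals from those reads, which cover counting error only. The median log2 fold change over all genes at 48 h against 0 h was 0.16 in empty vector cells, 0.22 with AML1-ETO and 0.16 with ETO2-GLIS2, so a gene with a value of 0 lies slightly below the middle of its comparison.

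The transcripts that the constructs carry followed the labels. RUNX1T1, which encodes ETO, was at 0.512, 22.2 and 28.7 FPKM at 0, 12 and 48 h in AML1-ETO cells and at most at 0.0240 FPKM in the other lines. Its value before induction in AML1-ETO cells was thus above that of the other lines. Whether some fusion RNA was already made then was not tested. GLIS2 was at 2.39, 6.79 and 8.85 FPKM in ETO2-GLIS2 cells, and CBFA2T3, which encodes ETO2, was at 4.10, 11.4 and 12.6 FPKM there. In the other lines GLIS2 lay between 2.47 and 5.60 FPKM and CBFA2T3 between 0.220 and 6.38 FPKM. Of 11 monocytic markers, 8 reached 1 FPKM in at least 1 library, while CD68 and CD14 stayed at or under 0.0802 FPKM. The summed level of T cell markers was at most 0.299 FPKM, with CD3D, CD3E and CD3G at 0 in all libraries. The sums were 1.92 to 5.77 FPKM for B cell markers, with MS4A1 and CD79B at 0, at most 1.37 FPKM for erythroid and at most 2.37 FPKM for megakaryocyte markers. Mast cell markers summed to between 77.9 and 635.9 FPKM, nearly all of it from the tryptase gene TPSAB1, which has a near-identical copy, with CPA3 at 0.

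When a receptor with an immunoreceptor tyrosine-based activation motif (ITAM) is engaged, Src-family kinases phosphorylate the ITAM, which lies in the receptor or in a partner chain such as TYROBP. SYK docks there and phosphorylates the membrane adaptor LAT2 and the cytosolic adaptor LCP2, on which VAV1, PLCG2 and the Tec-family kinase BTK assemble. In monocytes and macrophages this route serves Fc receptors, C-type lectins and TREM receptors, and leads to calcium release, actin remodelling and cytokine production.

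The start regions of the genes are shown because they can be set beside the levels below. RefSeq windows on GRCh38.p14, from 250 bases before to 50 bases after the outermost annotated start, were used for 7 of the 9 genes, all but LAT2 and LYN. The letters GAGGAA, the core recognised by the myeloid ETS-family factor PU.1, were found on either strand (TTCCTC on the other) in 6 of the 7 windows, against 27.9% of all 35116 windows in the table. The 250 bases before the start are printed below for the 4 of these genes that were past 2-fold lower in AML1-ETO cells, and for BTK, which was not and which holds the same letters. They run 5′ to 3′ on the strand of the gene, with the letters of either form in capitals.
LCP2, chr5:170297778-170298027, minus strand: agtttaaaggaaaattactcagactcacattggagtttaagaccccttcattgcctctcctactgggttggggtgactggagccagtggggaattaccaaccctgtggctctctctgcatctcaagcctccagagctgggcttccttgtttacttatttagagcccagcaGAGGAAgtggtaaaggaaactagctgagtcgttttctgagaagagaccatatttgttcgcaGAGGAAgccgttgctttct
VAV1, chr19:6772458-6772707, plus strand: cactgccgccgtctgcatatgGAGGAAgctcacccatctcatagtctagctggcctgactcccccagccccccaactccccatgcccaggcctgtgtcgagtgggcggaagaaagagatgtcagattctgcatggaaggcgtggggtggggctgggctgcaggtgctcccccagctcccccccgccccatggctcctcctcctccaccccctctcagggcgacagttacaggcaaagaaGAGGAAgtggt
TYROBP, chr19:35908296-35908545, minus strand: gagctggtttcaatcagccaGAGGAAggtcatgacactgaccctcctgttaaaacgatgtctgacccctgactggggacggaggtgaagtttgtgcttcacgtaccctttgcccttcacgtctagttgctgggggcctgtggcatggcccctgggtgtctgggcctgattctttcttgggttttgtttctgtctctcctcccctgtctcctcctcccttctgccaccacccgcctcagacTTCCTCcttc
FGR, chr1:27635186-27635435, minus strand: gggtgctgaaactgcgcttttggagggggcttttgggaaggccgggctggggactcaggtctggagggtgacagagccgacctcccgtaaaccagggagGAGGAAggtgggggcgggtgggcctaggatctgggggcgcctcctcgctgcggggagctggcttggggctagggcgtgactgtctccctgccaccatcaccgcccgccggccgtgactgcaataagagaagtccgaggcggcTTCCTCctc
BTK, chrX:101390797-101391046, minus strand: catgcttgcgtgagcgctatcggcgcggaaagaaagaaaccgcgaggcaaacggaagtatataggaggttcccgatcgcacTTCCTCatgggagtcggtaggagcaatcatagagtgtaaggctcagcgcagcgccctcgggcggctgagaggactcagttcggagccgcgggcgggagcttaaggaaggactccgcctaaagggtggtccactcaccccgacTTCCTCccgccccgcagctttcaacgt

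Each of the 5 regions held 2 matches. Counted from the start, the nearer one began 19 bases before it in LCP2, 11 in VAV1, 10 in TYROBP and 9 in FGR. In BTK, the only one of these that was not lower, it began 27 bases before the start. PLCG2 held its 1 match 28 bases inside the gene, and SYK held none. Neither of them was past 2-fold lower. Among all pairs of windows, the longest shared run was AGAGGAAGTGGTA (13 bases), in the same orientation in VAV1 and LCP2. Of the 35116 windows 5 held it on either strand, those of VAV1 and LCP2 included. The run was picked for its length, and a long run is rare by nature. The RUNX core TGTGGT was in 1 of the 7 windows, that of TYROBP, against 13.1% of all windows. Its second form TGCGGT was also in 1, that of SYK, against 7.29%. The loose C/EBP site TTNCNNAA was in 3 (FGR, BTK and PLCG2) against 36.8%. The E-box CACCTG was in 3 (SYK, PLCG2 and VAV1) against 20.6% and CAGCTG in 1 (PLCG2) against 17.9%, while the G-rich GLIS core TGGGGGGT was in 0 against 1.47%. All motifs were searched on both strands. Matches to these short strings overlap one another in places and are a description of the letters only.

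All 9 genes were expressed in uninduced cells, from 8.40 to 66.8 FPKM. SYK had the highest level of the 9 in each uninduced line, between 56.6 and 66.8 FPKM, and LAT2 came next, at 36.3 FPKM in empty vector cells, 35.8 FPKM in AML1-ETO cells and 40.2 FPKM in ETO2-GLIS2 cells. LYN and BTK followed, with 27.5 to 28.9 FPKM and 25.4 to 29.0 FPKM, and their order differed between lines. The T cell counterparts of LAT2 and SYK were near 0. LAT, the T cell relative of LAT2, ranged over the 9 libraries from 0.0597 to 0.223 FPKM, and ZAP70, that of SYK, reached at most 0.0718 FPKM. BLNK, which takes the place of LCP2 in B cells, ranged from 0.0181 to 0.413 FPKM.

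Before induction 1 member was past 2-fold from empty vector cells, and it was TYROBP in both fusion lines. TYROBP, which encodes the ITAM-bearing partner chain DAP12, was at 8.40 FPKM in uninduced empty vector cells, 16.9 FPKM in AML1-ETO cells and 23.9 FPKM in ETO2-GLIS2 cells. The log2 difference was 1.01 (0.69 to 1.33) for AML1-ETO cells, just past 2-fold and back within it, at 0.99, after median-ratio rescaling, and 1.51 (1.21 to 1.81) for ETO2-GLIS2 cells. Of all genes, 2.67% were higher and 2.24% lower in AML1-ETO cells, and 3.42% higher and 2.99% lower in ETO2-GLIS2 cells. The other 8 genes were within 2-fold of empty vector cells, the widest being FGR in AML1-ETO cells, with a log2 difference of 0.55 (0.43 to 0.68).

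**Figure D1:**
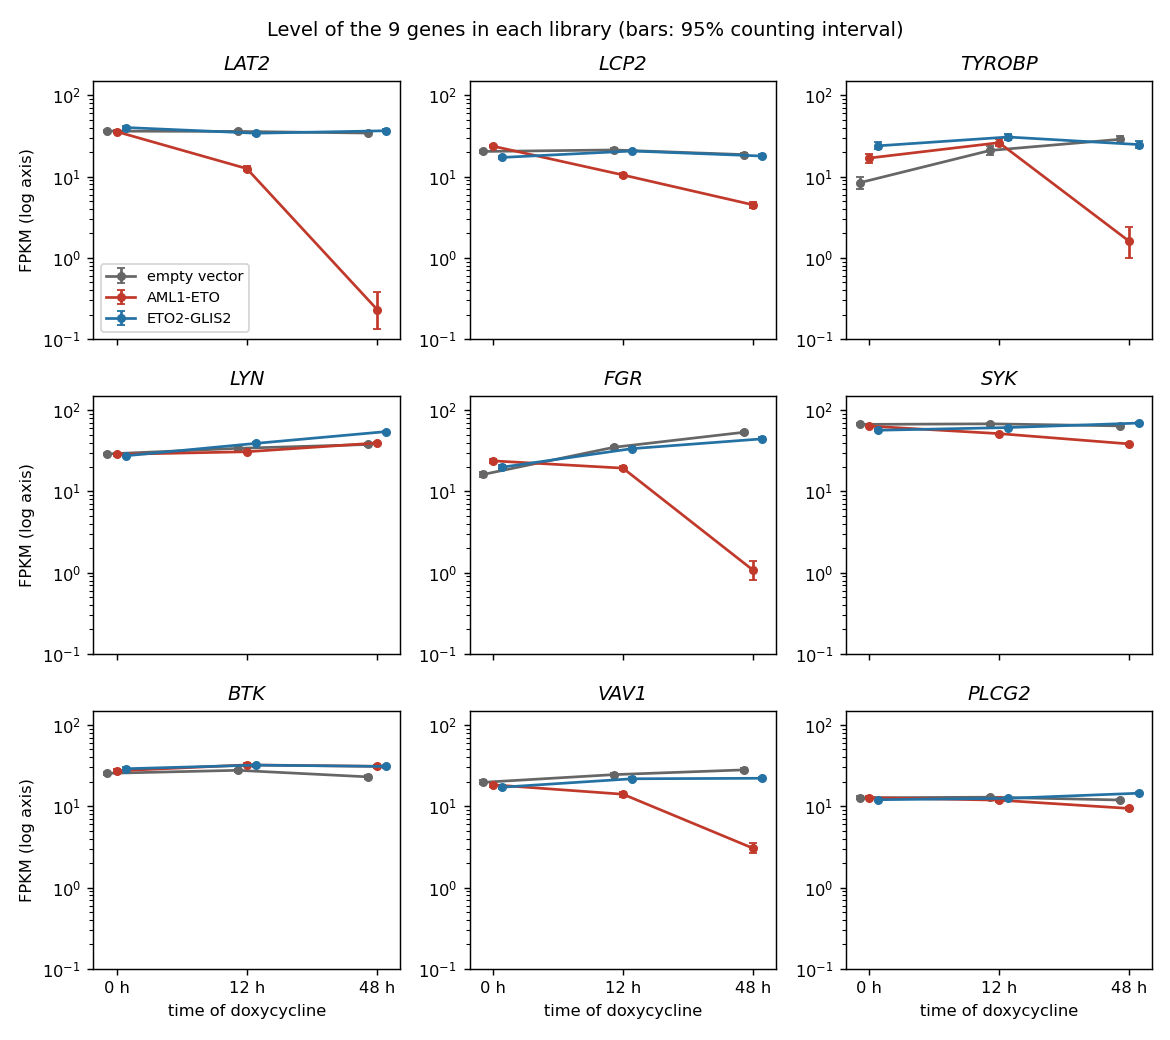
Level of the 9 genes in each of the 9 libraries, as FPKM on a log axis against hours of doxycycline. Gray is empty vector cells, red AML1-ETO cells and blue ETO2-GLIS2 cells, each point is 1 library and bars are 95% counting intervals. The red line leaves the other 2 for LAT2, LCP2, TYROBP, FGR and VAV1, and reaches 0.231 FPKM for LAT2 at 48 h, while for LYN the blue line ends highest, at 54.5 FPKM.

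LAT2 (ENSG00000086730, chr7:74210006-74229834), also called NTAL, is the scaffold that SYK and LYN phosphorylate at the membrane. In AML1-ETO cells it was at 35.8, 12.5 and 0.231 FPKM at 0, 12 and 48 h, from 2697, 880 and 16 reads. In empty vector cells it was at 36.3, 36.0 and 34.3 FPKM, and in ETO2-GLIS2 cells at 40.2, 34.2 and 36.7 FPKM. The 2 induced AML1-ETO libraries thus lay below the other 7, all of which were between 34.2 and 40.2 FPKM. The log2 fold change in AML1-ETO cells was -1.51 (-1.62 to -1.40) at 12 h and -7.21 (-8.08 to -6.57) at 48 h, which left 0.646% of the 0 h level. In FPKM the larger drop came in the first 12 h, whereas on the log2 scale it came later, where 48 h against 12 h gave -5.70 (-6.57 to -5.05). With a pseudocount of 1 FPKM the 48 h value was -4.90. In order of log2 fold change, LAT2 stood at place 38 from the lowest of the 12030 genes compared, a place that only describes the selection. LAT2 passed the minimum of 1 FPKM only through its 0 h library.

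The same library against empty vector cells at 48 h, which shares the induced library with the comparison above, gave -7.15 (-8.02 to -6.51). In empty vector cells the log2 fold change of LAT2 at 48 h was -0.08 (-0.16 to 0.0013) and in ETO2-GLIS2 cells -0.13 (-0.21 to -0.06). The 48 h level in AML1-ETO cells, 0.231 FPKM, was about that of the T cell adaptor LAT in the same library, 0.223 FPKM. These are bulk samples, in which fewer cells with LAT2 and less LAT2 RNA per cell cannot be told apart.

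LCP2 (ENSG00000043462, chr5:170246233-170297777), the cytosolic adaptor on which VAV1 and PLCG2 meet, was the other member past 2-fold lower at 12 h. It was at 23.8, 10.5 and 4.49 FPKM at 0, 12 and 48 h in AML1-ETO cells, from 2694, 1106 and 467 reads. The remaining libraries were at 20.4, 21.3 and 18.7 FPKM in empty vector cells and at 17.2, 20.7 and 17.9 FPKM in ETO2-GLIS2 cells, so that both induced AML1-ETO libraries lay below all others. The log2 fold change in AML1-ETO cells was -1.18 (-1.28 to -1.08) at 12 h and -2.40 (-2.55 to -2.26) at 48 h, a 5.29-fold lower level, with similar log2 steps before and after 12 h. Against empty vector cells at 48 h it was -2.05 (-2.20 to -1.91). Of the exon bases of LCP2 1.8% overlap C5orf58 on the other strand.

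TYROBP (ENSG00000011600, chr19:35904403-35908295) had a different course in each line. Empty vector cells had 8.40, 21.0 and 28.8 FPKM at 0, 12 and 48 h, with log2 fold changes of 1.32 (1.01 to 1.64) and 1.78 (1.48 to 2.08). ETO2-GLIS2 cells had 23.9, 30.7 and 24.8 FPKM, and their 48 h value against 0 h was 0.05 (-0.16 to 0.26). In AML1-ETO cells it was first higher and then lower, at 16.9, 26.1 and 1.59 FPKM, from 254, 366 and 22 reads. That gave 0.63 (0.40 to 0.87) at 12 h and -3.40 (-4.11 to -2.78) at 48 h against 0 h, and -4.03 (-4.73 to -3.42) at 48 h against 12 h. At 48 h it was -4.17 (-4.87 to -3.56) against empty vector cells. TYROBP was thus the member that was above its own start at 12 h and below it at 48 h in AML1-ETO cells with both intervals clear of 0. FCER1G, the Fc receptor gamma chain and the other common ITAM adaptor of myeloid cells, was at 40.5, 41.3 and 16.8 FPKM in AML1-ETO cells, at 34.3, 54.1 and 133.4 FPKM in empty vector cells and at 51.6, 88.5 and 216.6 FPKM in ETO2-GLIS2 cells. HCST, which encodes the related adaptor DAP10, was at most at 0.325 FPKM.

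The Src-family kinases LYN and FGR, which start the cascade, parted in AML1-ETO cells. FGR (ENSG00000000938, chr1:27612064-27635185) was at 23.8, 19.3 and 1.07 FPKM at 0, 12 and 48 h, from 1334, 1010 and 55 reads, which gave -0.30 (-0.42 to -0.18) and -4.46 (-4.89 to -4.09) for the later times. Empty vector cells had 16.2, 34.9 and 53.5 FPKM, which gave 1.11 (0.99 to 1.22) and 1.72 (1.61 to 1.83). ETO2-GLIS2 cells had 19.8, 33.6 and 44.4 FPKM, which gave 0.76 (0.66 to 0.86) and 1.16 (1.06 to 1.26). FGR was therefore higher under doxycycline in 2 lines, including the one without a fusion protein, and lower in the third. At 48 h AML1-ETO cells were at -5.63 (-6.06 to -5.26) against empty vector cells, a 49.6-fold difference, and ETO2-GLIS2 cells at -0.27 (-0.35 to -0.19).

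LYN (ENSG00000254087, chr8:55879835-56014169), which phosphorylates both activating and inhibitory receptors, was higher at 48 h than at 0 h in every line. The levels at 0, 12 and 48 h were 28.9, 33.9 and 37.8 FPKM in empty vector cells, 28.6, 30.8 and 39.5 FPKM in AML1-ETO cells and 27.5, 39.0 and 54.5 FPKM in ETO2-GLIS2 cells. The log2 fold change at 48 h was 0.39 (0.32 to 0.46), 0.47 (0.40 to 0.54) and 0.99 (0.93 to 1.05) in that order, the last just short of 2-fold. At 48 h LYN in ETO2-GLIS2 cells was 0.53 (0.47 to 0.59) above empty vector cells, while for AML1-ETO cells the interval of the difference was -0.0046 to 0.13.

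The ratio of FGR to LYN in FPKM was accordingly 0.832, 0.628 and 0.0271 at 0, 12 and 48 h in AML1-ETO cells, 0.560, 1.03 and 1.42 in empty vector cells and 0.723, 0.861 and 0.814 in ETO2-GLIS2 cells. It thus moved in opposite directions in the first pair of lines and stayed within a narrow range where ETO2-GLIS2 was induced. Of other Src-family kinases, SRC ranged from 0.994 to 2.79 FPKM and FYN from 0.163 to 2.94 FPKM over the 9 libraries, YES1 was at most at 0.0240 FPKM, and LCK and BLK were listed at 0.

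SYK (ENSG00000165025, chr9:90801600-90898549), the kinase that binds phosphorylated ITAMs, was at 63.7, 51.4 and 38.4 FPKM at 0, 12 and 48 h in AML1-ETO cells. In empty vector cells it was at 66.8, 67.9 and 64.1 FPKM, and in ETO2-GLIS2 cells at 56.6, 61.1 and 69.4 FPKM. The 2 induced AML1-ETO libraries were the lowest of the 9, with log2 fold changes of -0.31 (-0.37 to -0.25) and -0.73 (-0.79 to -0.67), neither past 2-fold. In ETO2-GLIS2 cells the 48 h value was 0.29 (0.24 to 0.35) and in empty vector cells -0.06 (-0.12 to -0.01). Because SYK kept 60.3% of its level where LAT2 kept 0.646%, the ratio of LAT2 to SYK in FPKM went from 0.562 to 0.244 and 0.00602 in AML1-ETO cells, and was between 0.528 and 0.710 in the other 2 lines.

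BTK (ENSG00000010671, chrX:101349450-101390796), the Tec-family kinase that activates PLCG2, was within 2-fold in every comparison. It was at 25.4, 27.7 and 23.0 FPKM in empty vector cells, 27.3, 32.3 and 31.0 FPKM in AML1-ETO cells and 29.0, 32.1 and 30.9 FPKM in ETO2-GLIS2 cells. Its log2 fold change at 48 h in AML1-ETO cells, 0.19 (0.10 to 0.27), was close to the median of all genes in that comparison. Against empty vector cells at 48 h BTK was 0.43 (0.34 to 0.53) higher with AML1-ETO and 0.43 (0.33 to 0.52) higher with ETO2-GLIS2. Its relative TEC ranged from 2.11 to 3.32 FPKM, BMX from 0.0649 to 0.395 FPKM and TXK from 0.0762 to 0.474 FPKM.

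VAV1 (ENSG00000141968, chr19:6772708-6857361), the exchange factor that links LCP2 to Rac and the actin cytoskeleton, was at 18.4, 14.1 and 3.03 FPKM at 0, 12 and 48 h in AML1-ETO cells, from 1313, 936 and 199 reads. Empty vector cells were at 19.7, 24.5 and 28.0 FPKM and ETO2-GLIS2 cells at 17.2, 21.8 and 22.1 FPKM, so that the induced libraries of AML1-ETO cells were below the other 7. The log2 fold change was -0.38 (-0.51 to -0.26) at 12 h and -2.59 (-2.82 to -2.38) at 48 h in AML1-ETO cells, a 6.04-fold lower level. In empty vector cells it was 0.51 (0.41 to 0.61) at 48 h, and the 48 h libraries of these 2 lines differed by -3.20. The broadly expressed relatives VAV2 and VAV3 were present in all libraries, from 9.44 to 17.4 FPKM and from 4.68 to 9.24 FPKM. In AML1-ETO cells at 48 h VAV2 had 12.5 FPKM and VAV3 4.68 FPKM, both above VAV1.

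PLCG2 (ENSG00000197943, chr16:81739041-81962685), the phospholipase that produces the second messengers for calcium release, was at 12.8, 11.9 and 9.40 FPKM in AML1-ETO cells, with a 48 h value of -0.44 (-0.53 to -0.36). It was at 12.7, 12.9 and 11.9 FPKM in empty vector cells and at 12.0, 12.5 and 14.5 FPKM in ETO2-GLIS2 cells, where the 48 h value was 0.26 (0.19 to 0.34). Its relative PLCG1 was at 6.43, 8.04 and 13.4 FPKM in AML1-ETO cells, with a 48 h value of 1.06 (0.95 to 1.17), and at 8.37, 7.93 and 5.85 FPKM in empty vector cells. The ratio of PLCG2 to PLCG1 was thus 1.98, 1.48 and 0.699 in AML1-ETO cells and between 1.52 and 2.04 in the other 2 lines. The GRCh37 annotation gives PLCG2 18328 exon bases, beside the 13375 on which its FPKM rest. Of the former, 22.6% are shared with another gene on the same strand, which is not listed among the genes measured. Whether the shared bases were counted for PLCG2 was not checked, so part of its level is uncertain.

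Counted together, 0 of the 9 genes were higher and 5 were lower past 2-fold in AML1-ETO cells at 48 h, where 17.3% of all 12030 genes were higher and 11.3% lower. In order of their log2 fold change the 5 were LAT2, FGR, TYROBP, VAV1 and LCP2, and LAT2 is among them by selection. The median over the 9 was -2.40, beside 0.22 over all genes. At 12 h, 0 were higher and 2 lower, LAT2 and LCP2, where 6.57% of all genes were higher and 2.39% lower. In ETO2-GLIS2 cells 1 was higher at 48 h, FGR, and 0 were lower, where 10.8% of all genes were higher and 2.54% lower, and the median over the 9 was 0.26. At 12 h it was 0 in both directions, with 3.03% of all genes higher and 1.46% lower. In empty vector cells 2 were higher at 48 h, FGR and TYROBP, and 0 lower, beside 8% and 2.99% of all genes, and the same 2 were higher at 12 h, beside 5.64% higher and 1.88% lower. When each library was rescaled by its median ratio, FGR in ETO2-GLIS2 cells at 48 h dropped to 0.99 so that 0 of the 9 were past 2-fold there, and the 2 higher genes of empty vector cells at 12 h became 1.

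The 48 h libraries were also compared with empty vector cells at the same time. In AML1-ETO cells the same 5 genes were lower and 0 were higher, where 11.8% of all 12261 genes were higher and 11.7% lower. In ETO2-GLIS2 cells 0 of the 9 were past 2-fold, where 4.15% were higher and 2.53% lower. Both comparisons share 1 empty vector library. Subtracting the change of empty vector cells from that of AML1-ETO cells at 48 h gave -7.13 for LAT2, -6.19 for FGR, -5.17 for TYROBP, -3.10 for VAV1 and -2.27 for LCP2. The same subtraction for ETO2-GLIS2 cells gave -1.72 for TYROBP, since that gene was higher under doxycycline in empty vector cells and level in ETO2-GLIS2 cells.

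**Figure D2:**
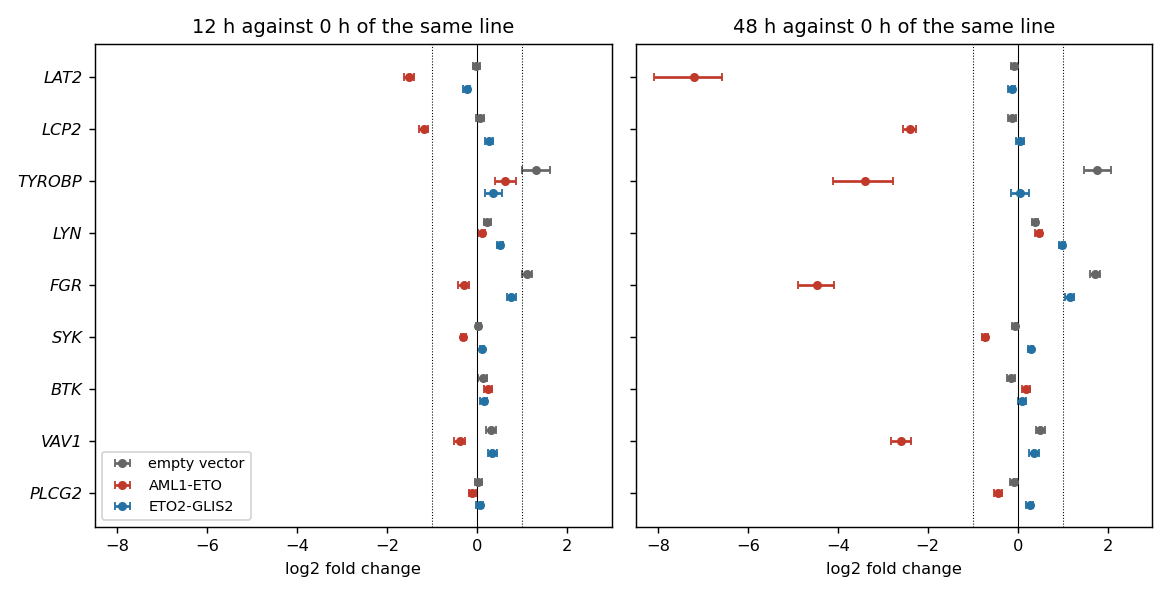
Log2 fold change of the 9 genes at 12 h (left) and 48 h (right) against 0 h of the same line, with 95% counting intervals and dotted lines at 2-fold. Gray is empty vector cells, red AML1-ETO cells and blue ETO2-GLIS2 cells. At 12 h LAT2 and LCP2 lie past the left dotted line in red, and at 48 h FGR, TYROBP and VAV1 do as well, with LAT2 at -7.21.

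Within AML1-ETO cells, the order of the 9 genes by FPKM was therefore rearranged. At 0 h it ran SYK, LAT2, LYN, BTK, FGR, LCP2, VAV1, TYROBP and PLCG2, with FGR and LCP2 both at 23.8 FPKM. At 48 h it ran LYN, SYK, BTK, PLCG2, LCP2, VAV1, TYROBP, FGR and LAT2, with LYN at 39.5 FPKM and SYK at 38.4 FPKM close to each other and LAT2 last. LAT2 exceeded 24.9% of the detected genes in this library, against 94.9% at 0 h. In ETO2-GLIS2 cells at 48 h SYK was still first and PLCG2 still last.

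Levels of myeloid markers also differed between these libraries. The summed FPKM of the 11 monocytic markers was 1328, 1695 and 313.5 at 0, 12 and 48 h in AML1-ETO cells, 799.7, 1119 and 730.8 in empty vector cells and 1593, 1850 and 688.2 in ETO2-GLIS2 cells, most of it from LYZ, which encodes lysozyme. Without LYZ the sum of the other 10 was 358.1, 349.1 and 268.4 in AML1-ETO cells and between 280.7 and 356.4 in the other lines. In AML1-ETO cells at 48 h against 0 h, 6 monocytic markers had a mean of at least 1 FPKM. Of these 2 were lower and 0 higher, beside 11.3% and 17.3% of all genes, with a median log2 fold change of -0.02. The 2 were LYZ, at 969.7, 1346 and 45.1 FPKM, and SPI1, which encodes PU.1, at 92.6, 53.1 and 11.9 FPKM. The other 4 were CSF3R at 0.51, FCGR1A at 0.46, CD33 at 0.15 and CD4 at -0.19 on the log2 scale. In ETO2-GLIS2 cells LYZ was also lower at 48 h, at -1.95, as 1 of 7 markers, beside 2.54% of all genes. There 2 of the 7 were higher, ITGAM at 2.36 and CD33 at 1.01, beside 10.8% of all genes. In empty vector cells 1 of 7 was higher, ITGAM at 1.24, and 0 lower, beside 8% and 2.99% of all genes. The part of these differences in the levels of the 9 genes was not tested.

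Around the 9 genes, 114 genes of the same pathway were examined in 5 lists by role, which were also drawn up with results of these data known. In AML1-ETO cells at 48 h, 78 of them had a mean FPKM of at least 1, of which 8 were higher and 24 lower past 2-fold, with a median log2 fold change of -0.26, beside the 17.3% higher and 11.3% lower of all genes. In ETO2-GLIS2 cells 12 of 80 were higher and 1 was lower, with a median of 0.29, beside 10.8% higher and 2.54% lower of all genes. In empty vector cells 8 of 81 were higher and 0 lower, with a median of 0.13, beside 8% and 2.99% of all genes. At 12 h the counts were 5 higher and 2 lower of 80 in AML1-ETO cells, beside 6.57% and 2.39% of all genes. They were 2 and 0 of 78 in ETO2-GLIS2 cells, beside 3.03% and 1.46%, and 5 and 0 of 79 in empty vector cells, beside 5.64% and 1.88%. The 12 h counts, and those of ETO2-GLIS2 and empty vector cells at 48 h, thus lay near the shares over all genes. The genes named next had a mean FPKM of at least 5, were past 2-fold in a fusion line at 48 h and were not past it in the same direction in empty vector cells. FYN, LIME1, RASGRP4, FCAR, FCGR2C, OSCAR, SIRPB1, PTPN22, CD300A, PILRA and CLEC12A fall outside these limits. They were added after their values were seen, to complete short counts.

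Among the cytoplasmic kinases 0 of 13 were higher and 5 lower in AML1-ETO cells at 48 h, beside 17.3% and 11.3% of all genes. The median was -0.55. PRKCD, a protein kinase C that acts downstream of phospholipase C, had the lowest value, -2.47, and was already at -1.24 at 12 h. The others were FES at -1.96, the phosphoinositide 3-kinase subunit PIK3CB at -1.34, PTK2B at -1.32 and CSK at -1.01. CSK phosphorylates the inhibitory site of Src-family kinases such as LYN and FGR. With ETO2-GLIS2 1 of 13 was higher, beside 10.8% of all genes. It was FYN, at 2.16 and at 1.78 in empty vector cells, both from low levels.

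Among the adaptors 2 of 16 were higher and 3 lower in AML1-ETO cells at 48 h, beside 17.3% and 11.3% of all genes. The median was -0.43. SLA, an adaptor that dampens receptor signalling, went from 10.1 to 0.167 FPKM, a value of -5.84, the closest to LAT2 in size in these lists, while in ETO2-GLIS2 cells it was at 1.09, beside 0.63 in empty vector cells. SH3BP2, which binds SYK and VAV1, was at -2.59 and PIK3AP1, which brings in phosphoinositide 3-kinase, at -1.04. PAG1, the membrane adaptor that recruits CSK and is built like LAT2, was in contrast higher in both fusion lines, at 1.54 and 1.20, but it was also at 0.95 (0.85 to 1.06) in empty vector cells. The other higher adaptor was LIME1, at 1.84 beside 2.03 in empty vector cells.

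Among the effectors 2 of 20 were higher and 5 lower in AML1-ETO cells at 48 h, beside 17.3% and 11.3% of all genes. The median was -0.14. RASGRP2, an exchange factor for Rap, was at -5.08, and RAC2, the hematopoietic Rac that VAV1 activates, went from 68.7 to 3.02 FPKM, a value of -4.50. NFATC2, a calcium-dependent transcription factor, was at -1.90 and the calcium channel subunit ORAI1 at -1.14, while STIM1, the calcium sensor that opens it, was at 0.63, beside 1.11 in ETO2-GLIS2 cells and 0.82 (0.72 to 0.92) in empty vector cells. RASGRP4, a relative of RASGRP2, was at -1.92. The 2 higher genes were PLCG1 and MALT1, the latter at 1.04.

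Of 19 inhibitory receptors, phosphatases and ubiquitin ligases 0 were higher and 8 lower in AML1-ETO cells at 48 h. The shares over all genes were 17.3% and 11.3%, and the median of the list was -0.48. The phosphatase PTPN12 was at -3.14 and PTPN6 (SHP-1), which inhibitory receptors recruit, at -2.41. UBASH3B, a phosphatase that acts on SYK, was at -1.64 and the lipid phosphatase INPP5D (SHIP1) at -1.20. The other lower genes had a mean under 5 FPKM. Of these the phosphatase PTPN22 had the lowest value of the list, -4.19, and was already at -1.02 at 12 h. The receptors CD300A, PILRA and CLEC12A were at -1.97, -1.24 and -1.15. UBASH3B was also the 1 gene of all lists that was lower in ETO2-GLIS2 cells, at -1.06. The inhibitory receptor SIGLEC7 was higher there, at 1.02, beside 0.44 in empty vector cells.

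Of 10 receptors and ITAM adaptors 4 were higher and 3 lower in AML1-ETO cells at 48 h, beside 17.3% and 11.3% of all genes. The median there was 0.28. FCER1G was at -1.27 there, beside 2.07 in ETO2-GLIS2 cells and 1.96 in empty vector cells. NFAM1, a receptor that carries its own ITAM, was at -1.02. CLEC5A, a lectin receptor that signals through TYROBP, was at 1.56 in AML1-ETO cells, where TYROBP was at -3.40, at 1.01 in ETO2-GLIS2 cells and at 0.87 (0.71 to 1.02) in empty vector cells. FCAR, the Fc receptor for IgA, had the highest value among the counted genes of the lists, 4.22, from 3.01 to 56.3 FPKM, beside 1.41 in empty vector cells. The other 2 higher genes were FCGR2C, at 3.24 from a level of 0.185 FPKM and with a near-identical copy, and OSCAR, at 1.02 beside 1.90 in empty vector cells. The third lower gene was SIRPB1, at -1.59.

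**Figure D3:**
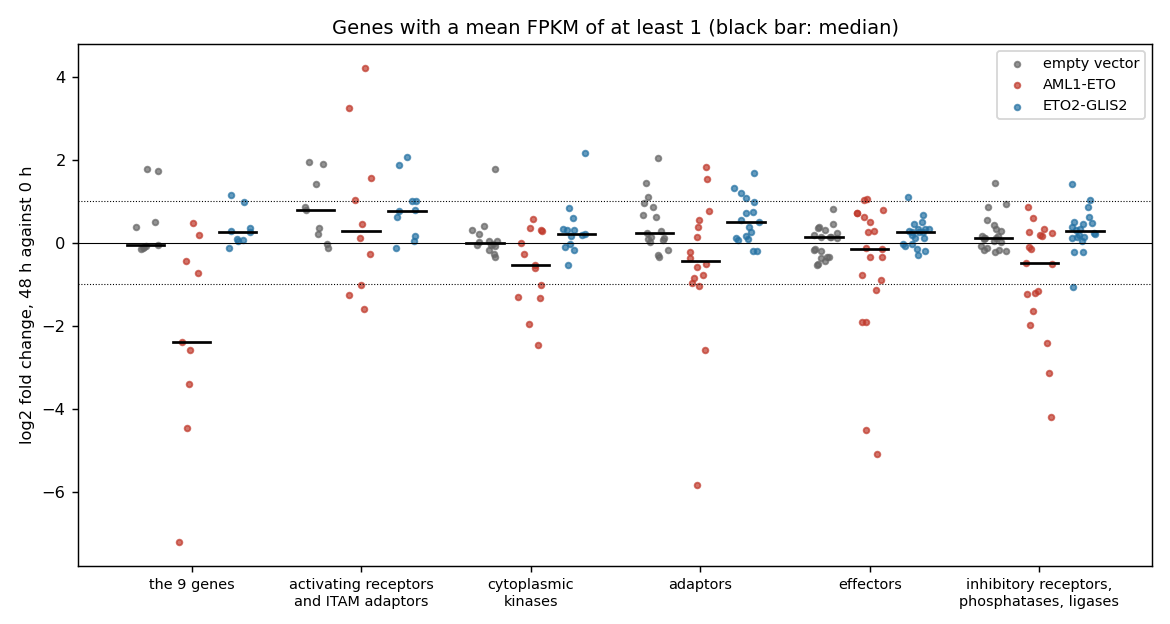
Log2 fold change at 48 h against 0 h for the 9 genes and for the 5 pathway lists, 1 point for each gene with a mean FPKM of at least 1, black bars at the medians and dotted lines at 2-fold. In AML1-ETO cells (red) the medians are -2.40 for the 9 genes, 0.28 for receptors and ITAM adaptors and -0.55 for kinases. They are -0.43 for adaptors, -0.14 for effectors and -0.48 for inhibitory receptors, phosphatases and ubiquitin ligases.

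The genes whose course over the 9 libraries was most like that of LAT2 were sought among the 11767 genes that average 1 FPKM or more. Likeness was the root mean square difference between log2 values, each gene centred on its own mean, so that 0 is an identical course. The nearest were RAP1GAP2 at 0.29, PHACTR3 at 0.32, LGALS12 at 0.38, FUT7 at 0.42 and BTBD11 at 0.44. PHACTR3 was at 16.8, 5.65 and 0.172 FPKM at 0, 12 and 48 h in AML1-ETO cells and at 13.4 to 21.4 FPKM in every library of empty vector and ETO2-GLIS2 cells. None of the other 8 members was among these: FGR came at place 54 with 0.95, TYROBP at 142 with 1.31, VAV1 at 183 with 1.40 and LCP2 at 308 with 1.59. SYK at place 1640, PLCG2 at 2434, BTK at 5832 and LYN at 6135 were farther away.

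**Figure D4:**
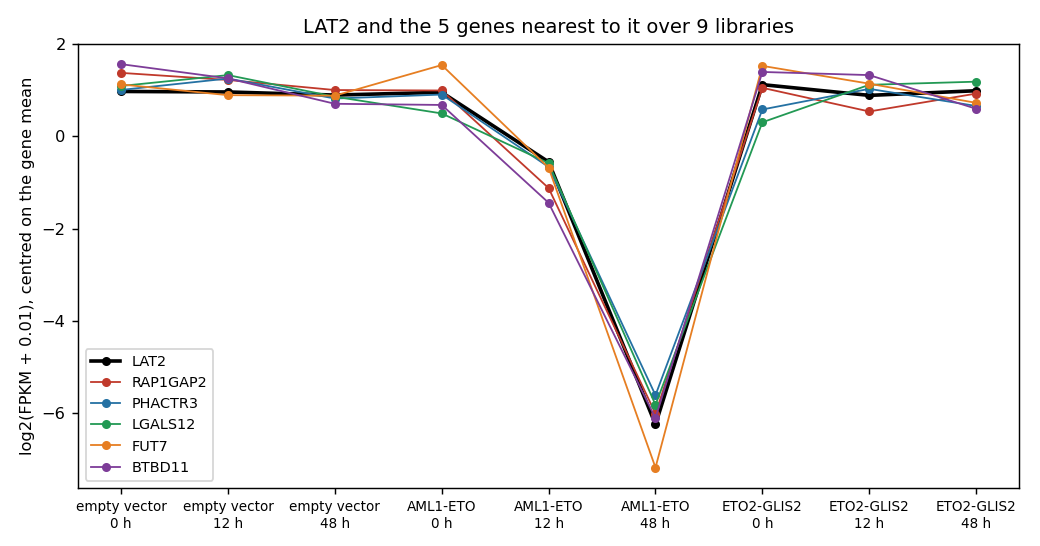
Log2(FPKM + 0.01) of LAT2 (black) and of the 5 genes with the most similar course, each centred on its own mean, over the 9 libraries. All 6 lie close together in the empty vector and ETO2-GLIS2 lines and drop in AML1-ETO cells from 0 h over 12 h to 48 h. The 5 were chosen by likeness to LAT2 over these same libraries, so the shared drop is built in.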

How the data were processed

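RNA-seq libraries (TruSeq RNA version 2, Illumina sequencing) were aligned by the authors to hg38 with HISAT2 (2.0.5), handled with samtools (1.7) and counted with HTSeq (0.9.1), and FPKM values per Ensembl gene were deposited. The annotation version is not given in the sources used here, and the kit does not mark strand, so reads of overlapping genes on opposite strands cannot be told apart. HTSeq is stated with default settings, which count by strand. With this kit they would leave out reads of each gene that map to the other strand, and could count them for a gene there. Which setting was used was not checked, so FPKM and recovered reads may hold only part of the reads of a gene. FPKM is relative to the library total, so that a few highly expressed genes shift all others.

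The 9 genes were found by name, with the identifier of highest mean FPKM where a name repeats. The members, lists and motifs were chosen with earlier results of these data known. Fold changes were computed from FPKM plus 0.01. The software was scipy (1.17.1), pandas (2.3.3), numpy (2.4.6) and matplotlib (3.10.9) under Python (3.11.15). Since the FPKM of a gene move in steps of 1 read, reads were recovered for 23880 of 23889 genes above 0 in at least 3 libraries, a step tested on simulated data, and were used only for intervals and depth. Reads carry no molecular identifiers, so intervals cover counting error only. With 1 library per condition no count model or other test was run.

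Of the pathway genes listed at the outset, 2 kinases are not reported here and were left out of the lists. Named were all members, their other paralogs, the 5 genes most like LAT2 and label checks. Listed pathway genes were named where past 2-fold at 48 h with a mean FPKM of at least 5 in a fusion line. Such genes were not past it in the same direction in the empty vector line. Further genes, given with the lists, were chosen after their values were seen. Alternatives covered the filter, pseudocount, scaling, fold threshold, reference library and subtraction of the empty vector line. Coordinates and promoter windows come from RefSeq on GRCh38.p14, and exon overlaps from an annotation on GRCh37.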

Additional observations from a re-analysis of the deposited data

Results flagged for a closer look

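In 5 of the 9 genes the log2 fold change was negative in the AML1-ETO line and positive in the ETO2-GLIS2 line at both 12 h and 48 h, which drew attention to them, as in 7.75% of the 10705 genes that reached the FPKM minimum in all 4 comparisons. After rescaling by the median ratio 2 of the 9 showed it, FGR and VAV1, beside 6.36% of genes. For PLCG2 at 12 h and LCP2 at 48 h the ETO2-GLIS2 value was 0.06, with intervals of -0.02 to 0.13 and -0.03 to 0.15 that include 0, and rescaled it was -0.06 and -0.11. For SYK at 12 h it was 0.11 (0.06 to 0.16), and -0.0086 rescaled. At 48 h the value of the AML1-ETO line minus that of the ETO2-GLIS2 line was -5.62 for FGR, -2.96 for VAV1, -2.46 for LCP2, -1.02 for SYK and -0.71 for PLCG2. FGR and VAV1 were also higher under doxycycline without a fusion protein, at 1.72 and 0.51 by 48 h, beside 1.16 and 0.37 with ETO2-GLIS2. Less the change of empty vector cells, the ETO2-GLIS2 change of FGR was -0.35 at 12 h and -0.56 at 48 h. For VAV1 it was 0.03 and -0.14, while for SYK, PLCG2 and LCP2 it was positive each time. With 1 library per condition these differences were not tested. LAT2 is not among the 5, since it was at -0.13 in the ETO2-GLIS2 line, and neither is TYROBP, which was at 0.63 in the AML1-ETO line at 12 h.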

How the results depend on the processing

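Of 115 values computed under other settings, 104 were the same as or near the main value, 11 moved and 0 turned direction. Most of the 115 are counts, which have no direction to turn, and many of these stayed at 0. Small changes of a count are among the 104. The 2 genes lower in the AML1-ETO line at 12 h, for example, became 3 with the empty vector line subtracted. The log2 fold change of LAT2 in the AML1-ETO line at 48 h moved from -7.21 to -4.90 with a pseudocount of 1 FPKM, and the value less that of the empty vector line from -7.13 to -4.82, since the 48 h level is below that pseudocount. The 1 gene higher in the ETO2-GLIS2 line at 48 h became 0 after rescaling by the median ratio, 2 at a fold threshold of 1.5, and 0 with the empty vector line subtracted, which also made 1 gene lower in place of 0. At 12 h, the 2 genes higher in the empty vector line became 1 after rescaling, and a threshold of 1.5 made 1 gene higher in place of 0 in each fusion line. The 5 genes lower in the AML1-ETO line at 48 h stayed 5 under the other settings and became 6 at a threshold of 1.5. Before induction, the 1 gene higher in the AML1-ETO line than in the empty vector line became 0 with a pseudocount of 1 FPKM and after rescaling, settings added for this comparison, and the rescaled shares of opposite signs, after the data were seen. No paired analysis was possible because each condition had 1 library. The depth leaves 16 reads for LAT2 at 48 h in the AML1-ETO line, hence its wide interval.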
